A study of Drosophila melanogaster with 2 samples.

Results

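Of the 1664 genomic regions at which the tagged Abrupt protein was reproducibly recovered from fly embryos, 544 lay at promoters that face one way. They were chosen by position alone: the summit of the region, its point of highest signal, had to lie within 500 bp of the transcription start site of a protein-coding gene, and every such start within 500 bp had to be on the same strand. The 544 peaks made up 32.7% of the list (95% Wilson interval 30.5 to 35.0%). The remaining peaks fell into 339 at promoters with protein-coding starts on both strands, called both-strand promoters here, 527 that were 0.5 to 5 kb from the nearest start, and 254 that were over 5 kb away.

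The experiment was a chromatin immunoprecipitation with sequencing (ChIP-seq) from whole Drosophila melanogaster embryos of mixed sex collected 0 to 24 hours after egg laying. The flies were a stable transgenic line in which the product of abrupt (ab) carries a C-terminal GFP tag (green fluorescent protein), and the chromatin was recovered with an antibody against that tag after sonication to fragments of 200 to 800 bp. There was 1 group with 2 biological replicates, so no condition could be compared with another. The labels name a control data set, which was not analysed here, and the promoter driving the transgene is not given in the sources used here. Whole embryos over the first day hold many cell types, so fewer cells with the protein at a promoter and less protein per cell cannot be told apart.

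Abrupt is a transcription factor with a BTB domain, through which such proteins pair with each other, and with zinc fingers that contact DNA. It is known from the fly for its part in the contacts between motor axons and muscles, in wing vein formation and in the branching of sensory neurons. A promoter is the stretch around a transcription start at which RNA polymerase II and its general factors assemble. Many fly genes sit back to back and share the space between their starts, and a peak there cannot be assigned to one gene, whereas a peak at a single-direction promoter has protein-coding starts on one strand only.

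The sequences below show 2 sets of summits, each 101 bases centred on the summit, read 5′ to 3′ on the strand of the gene from the dm6 reference genome (BDGP6). They were taken from peaks on the chromosome arms shown whose window holds no annotated exon, so stronger peaks elsewhere are not among them. The capitals mark the 6-base word ACAGTG, the related word ACTGTG and a separate word, CTAGCA, on either strand. Those words were found more often within 50 bp of summits than in windows centred 300 bp further upstream, as described further on. The first set holds the 6 strongest peaks within these limits and is shown because their summits have the largest signals: gro was the only one of the 6 to carry any of the words.
CG14100, chr3L:19590575-19590675, minus strand: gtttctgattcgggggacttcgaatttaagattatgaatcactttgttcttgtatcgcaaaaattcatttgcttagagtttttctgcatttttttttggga
Ugalt, chrX:2703862-2703962, minus strand: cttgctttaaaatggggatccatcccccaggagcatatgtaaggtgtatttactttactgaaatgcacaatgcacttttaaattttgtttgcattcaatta
CG31145, chr3R:23669766-23669866, minus strand: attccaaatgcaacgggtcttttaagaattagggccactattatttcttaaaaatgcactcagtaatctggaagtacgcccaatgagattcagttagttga
Atf3, chrX:1275473-1275573, minus strand: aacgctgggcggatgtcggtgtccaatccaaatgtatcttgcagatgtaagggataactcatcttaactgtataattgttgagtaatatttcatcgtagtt
larp, chr3R:28326521-28326621, minus strand: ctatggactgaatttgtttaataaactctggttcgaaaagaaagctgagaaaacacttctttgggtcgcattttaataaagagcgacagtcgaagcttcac
gro, chr3R:26042500-26042600, plus strand: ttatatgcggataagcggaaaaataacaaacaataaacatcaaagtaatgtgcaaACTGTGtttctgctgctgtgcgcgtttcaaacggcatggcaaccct
The second set holds the 7 strongest peaks within the same limits with ACAGTG, or its reverse complement CACTGT, within 50 bp of the summit. In 6 of the 7 the word began downstream of the summit, on the side of the gene's start.
prage, chrX:1830760-1830860, plus strand: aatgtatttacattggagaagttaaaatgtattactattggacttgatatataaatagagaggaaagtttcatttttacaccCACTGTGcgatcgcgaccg
CG1635, chr3R:31588554-31588654, plus strand: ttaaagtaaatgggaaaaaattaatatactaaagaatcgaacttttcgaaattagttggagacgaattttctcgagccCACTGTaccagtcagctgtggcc
P5CDh1, chr3L:21840314-21840414, minus strand: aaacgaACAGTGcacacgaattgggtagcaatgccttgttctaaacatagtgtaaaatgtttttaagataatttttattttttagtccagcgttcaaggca
CG7694 and fray, chr3R:18583936-18584036, plus strand: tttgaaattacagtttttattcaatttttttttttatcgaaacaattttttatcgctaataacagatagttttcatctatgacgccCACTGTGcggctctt
sick, chr2L:19865637-19865737, plus strand: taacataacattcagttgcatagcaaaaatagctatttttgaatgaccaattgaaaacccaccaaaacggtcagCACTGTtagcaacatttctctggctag
PAN3, chr3L:3081432-3081532, plus strand: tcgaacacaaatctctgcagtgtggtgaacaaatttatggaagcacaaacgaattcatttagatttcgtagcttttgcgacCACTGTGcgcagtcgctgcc
CG8034, chrX:19298216-19298316, minus strand: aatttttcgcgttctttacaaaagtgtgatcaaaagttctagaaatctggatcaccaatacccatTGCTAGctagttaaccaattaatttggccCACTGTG

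The members named 515 genes, and 503 genes were the nearest to at least 1 peak. Among those nearest genes 466 had 1 peak, 34 had 2 and 3 had 3 or more. At 14 peaks, starts of 2 genes on the same strand lay within 500 bp, and 93 peaks had more than 1 start position in reach. The single direction held well beyond the window for most: the nearest protein-coding start on the opposite strand was a median of 4468.5 bp from the summit, with a range of 504 to 81909 bp. The choice looked at protein-coding genes only, and 25 peaks (4.60%) had an opposite-strand start of another kind of gene within 500 bp. A further check showed that 50 summits (9.19%) lay inside another protein-coding gene. None of the 544 peaks lay at any of the 3 starts of ab itself.

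The peaks sat on the upstream side of the start. The summit was upstream of the nearest start at 454 peaks and downstream at 90, which is 83.5% upstream (95% Wilson interval 80.1 to 86.3%, two-sided exact binomial test against 50%, p = 1.9e-59). The median position was 135.5 bp upstream, written -135.5, with quartiles at -249 and -38 bp. Counts fell off with distance on the upstream side, with 141 summits at 1 to 100 bp, 126 at 101 to 200 bp, 89 at 201 to 300 bp, 64 at 301 to 400 bp and 34 at 401 to 500 bp. On the downstream side the same steps held 37, 18, 9, 10 and 16 summits. The upstream share was 86.1% at plus-strand starts and 81.4% at minus-strand starts. Each test over peaks treats a peak as 1 unit, so its p-value measures counts over promoters and not the spread between embryo collections.

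Regions that did not reach the reproducible list were less one-sided. The authors' pooled list held 21376 regions, of which the reproducible peaks were the 1664 with the largest signal, and the same positional rule picked 4044 of the weaker regions. Of these 55.3% were upstream, against 83.5% of the reproducible peaks (two-sided Fisher's exact test, p = 2.0e-39), and their median position was -25 bp. The share of summits within 100 bp of the start was 32.7% in the reproducible peaks and 33.6% in the weaker regions, which did not differ beyond counting error (Fisher's exact test, p = 0.699). That second comparison depended on strength, since only 23.3% of the 279 peaks with the larger signal, among the strongest 832 of the list, were within 100 bp (Fisher's exact test against the weaker regions, p = 3.6e-04).

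**Figure D1:**
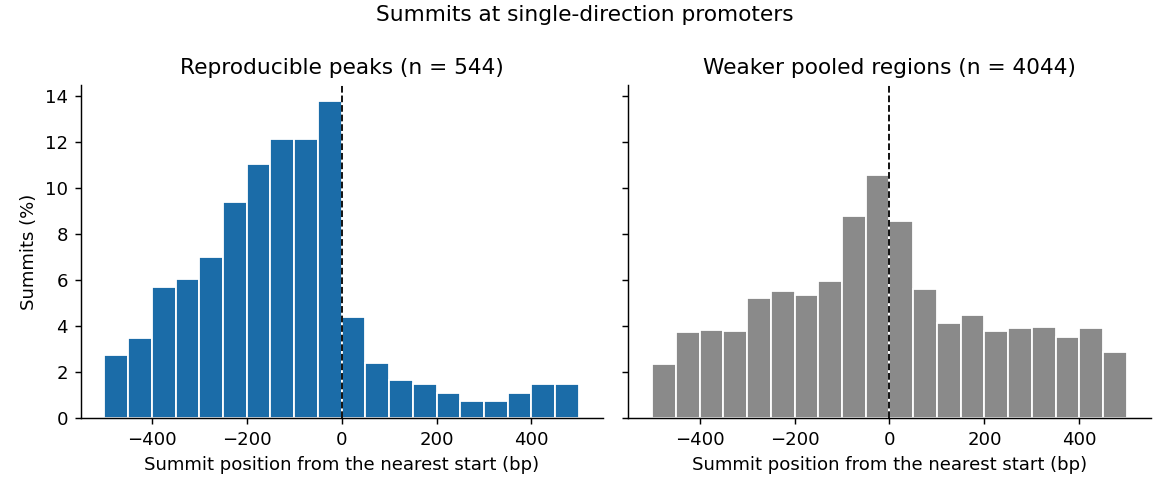
Position of summits relative to the nearest protein-coding start in 50 bp steps, as a percent of 544 reproducible peaks at single-direction promoters (left) and of 4044 weaker pooled regions chosen in the same way (right); the dashed line is the start and negative values are upstream. In the left panel 83.5% of the summits lie left of the line and in the right panel 55.3%.

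The upstream share went down with signal along the whole pooled list. At single-direction promoters, 92.9% of summits among ranks 1 to 208 were upstream, 86.4% among ranks 209 to 416, 82.5% among ranks 417 to 832 and 80.8% among ranks 833 to 1664. Beyond the reproducible list the share went on down through 71.5, 59.3 and 53.0% to 47.4% among ranks 13313 to 21376. The median position moved with it, at -183.5 bp in the first bin and 20.5 bp in the last. The share of regions that lay at a single-direction promoter did not follow the same course. It stayed at 33.7, 31.7, 34.4 and 31.9% across the reproducible list, was still 33.7% among ranks 1665 to 3328, and then was 26.9, 19.5 and 16.0% in the last bins.

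**Figure D2:**
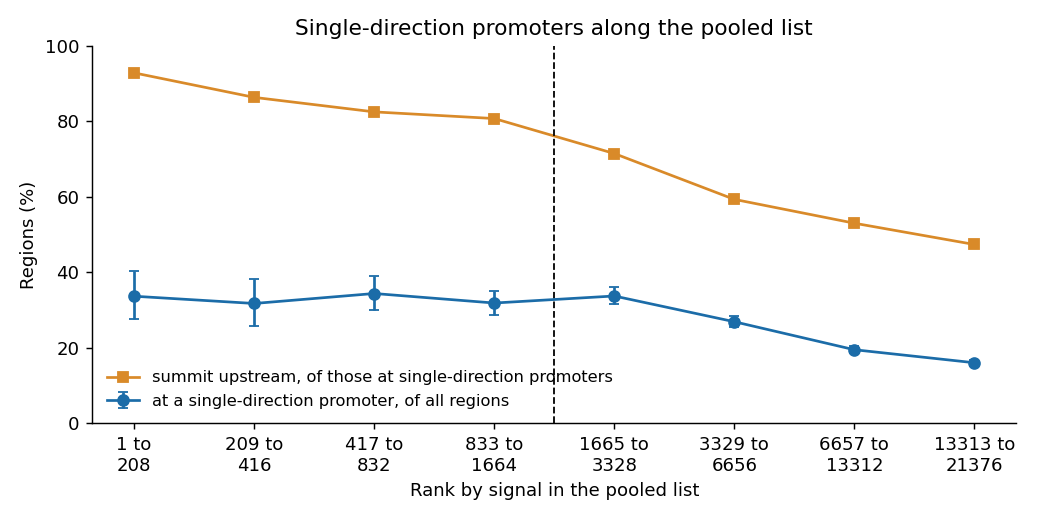
Share of regions (%, vertical axis) by rank of signal in the pooled list (strongest at left): circles give regions at single-direction promoters among all regions, with 95% Wilson intervals, and squares give the share of those whose summit is upstream. The dashed line marks the end of the reproducible list at rank 1664, and the upstream share runs down from 92.9 to 47.4% while the promoter share is level near 32 to 34% until rank 3328.

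By annotation, 260 summits lay outside protein-coding genes, 193 in introns, 83 in 5′ UTRs, 6 in 3′ UTRs and 2 in coding sequence. The 193 in introns included 160 that were upstream of the nearest start, which are starts inside a longer transcript or another gene. Downstream summits were mostly in the 5′ UTR, at 56 of 90, with 33 in introns and 1 in coding sequence. The 500 bp limit cut through a continuous range. Just inside it were the peaks at CG17896 (-495 bp, signal 211.5), sick (-494 bp, 131.2) and prage (-493 bp, 170.7), and just outside were peaks 508 bp from a start of CG5854 (signal 56.7), 509 bp from ph-p (509.7) and 510 bp from ITP (56.9).

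The strongest of the 544 peaks was at CG14100, which had a signal of 493.7 in replicate 1 and 311.2 in replicate 2 and 802.5 in the pooled data. The signal is the authors' own score for a region, with a scale that is not given in the sources used here, and it serves to rank regions and to compare the replicates of 1 peak. Its summit lay 101 bp upstream of the only start within 500 bp, at chr3L:19590625 of dm6, outside any protein-coding gene. Ugalt, which encodes a transporter of UDP-galactose into the Golgi, was next, with 299.0 in replicate 1 and 272.7 in replicate 2 and a summit 60 bp upstream. CG1888 had 226.6 in replicate 1 and 304.9 in replicate 2, and CG31145 had 222.2 and 234.8 in the same order. The median peak was far below these, at a pooled signal of 76.3 with quartiles of 60.5 and 102.4 and a minimum of 51.9.

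Regulators of transcription were among the 20 strongest peaks. The peak at px (plexus), a gene of wing vein patterning, had 219.7 in replicate 1 and 261.9 in replicate 2. Sox14, an HMG-box factor of the ecdysone response, had 185.7 in replicate 1 and 178.8 in replicate 2. Both replicates were close in each of these genes. Atf3, a bZIP transcription factor, had 158.5 in replicate 1 and 164.2 in replicate 2. The peak at gro, which encodes the corepressor Groucho, had 129.4 in replicate 1 and 152.2 in replicate 2. The gro summit was 91 bp upstream of the nearest of 3 starts.

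Genes of protein synthesis and RNA handling formed another part of the 20. The peak at eIF6, a factor that keeps ribosomal subunits apart, had 181.2 in replicate 1 and 163.5 in replicate 2. At mRpL41, for a protein of the large mitochondrial ribosomal subunit, the values were 150.2 in replicate 1 and 164.1 in replicate 2. PNPase, for a polynucleotide phosphorylase that works on RNA in mitochondria, had 189.6 in replicate 1 and 223.7 in replicate 2. These peaks were all within 101 bp of the start. The RNA-binding protein gene larp had a more distant summit, 307 bp upstream, with 167.8 in replicate 1 and 154.8 in replicate 2.

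The rest of the 20 included signalling and structural genes and genes of membranes and metabolism. The peak at gish, for a casein kinase I, had 114.8 in replicate 1 and 179.2 in replicate 2. Fhos, for a formin that builds actin filaments, had 146.9 in replicate 1 and 151.2 in replicate 2, and Rtnl1, for the reticulon of the endoplasmic reticulum, had 141.6 and 129.4 in the same order. A peak shared by starts of CG46429 and Sesn, the gene of the stress protein sestrin, had 156.5 in replicate 1 and 171.8 in replicate 2. GstE13, for a glutathione S-transferase, had 155.5 in replicate 1 and 141.6 in replicate 2. MFS10, for a membrane transporter of the major facilitator class, had 186.7 and 155.6 in that order. CG13921 and CG18549 closed the list with pooled signals of 283.2 and 262.5. All 20 summits were upstream, all 20 had signals within 2-fold between replicates, and 11 were higher in replicate 2.

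**Figure D3:**
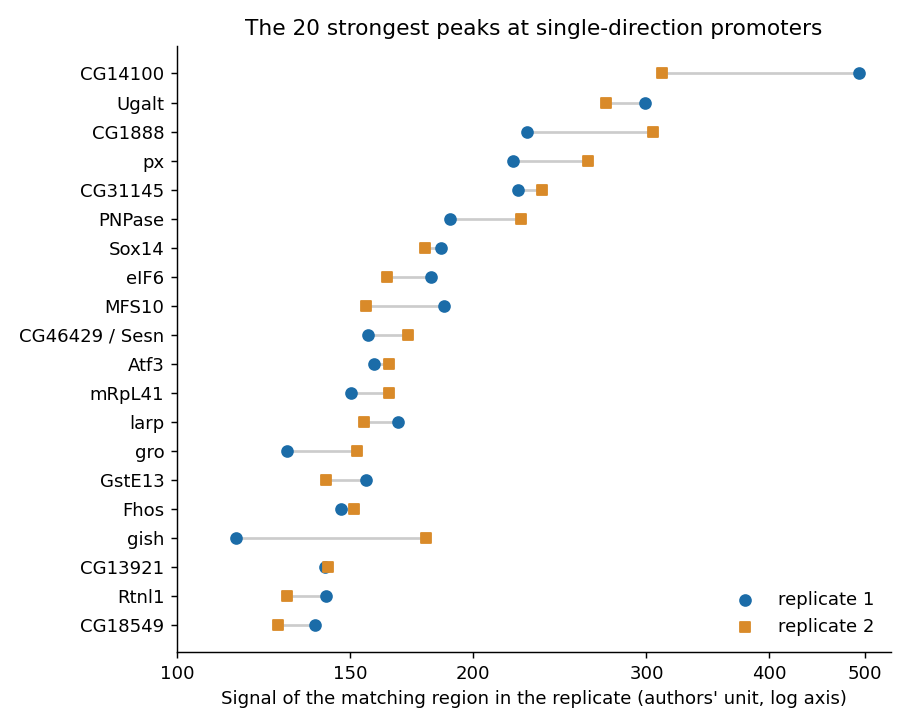
Signal of the matching region in each replicate (log axis, authors' unit) for the 20 single-direction promoter peaks with the largest pooled signal, strongest at the top; circles are replicate 1 and squares are replicate 2. The replicates stay within 2-fold at every gene, and CG14100 has the largest value, 493.7 in replicate 1.

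A few genes drew several peaks. Rtnl1 had 4, Ptpmeg2, for a protein tyrosine phosphatase, had 3, and chas (chascon) had 3. The peaks of Ptpmeg2 stood at 3 separate starts, with summits at -173, -198 and -205 bp, with pooled signals of 127.0, 98.3 and 94.9. Those of Rtnl1 had pooled signals of 270.0, 126.5, 88.8 and 87.7, and the pair at 270.0 and 88.8 overlapped and was matched to the same replicate 1 region. Over the whole set, 56 peaks overlapped another reproducible peak, 12 shared their replicate 1 match with another member and 8 shared their replicate 2 match, so peaks are not fully independent of each other.

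Replicate agreement was close for strong peaks and loose for weak ones. A summit of replicate 1 lay within 200 bp of 530 of the 544 peaks and a summit of replicate 2 within 200 bp of 538, with medians of 37.6 and 40.8 in that order. Of the 525 peaks matched in both lists, 407 (77.5%) were within 2-fold. The log2 ratio of replicate 2 to replicate 1 had a median of 0.07 and an SD of 0.89 over peaks. Against the 1664 strongest regions of each replicate, 292 of the 544 peaks (53.7%) were matched in both, beside 53.5% of all reproducible peaks. In 4 groups of equal size by pooled signal that share was 95.6, 73.5, 35.3 and 10.3%, strongest first, and the SD of the log2 ratio was 0.57, 0.90, 0.97 and 1.04. Pooled signal and replicate signal come from the same reads, so this course describes the lists.

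The peaks that leaned furthest to replicate 1 were at ph-p, PlexA and Rap1. At ph-p, a Polycomb group gene, the signal was 60.1 in replicate 1 and 7.86 in replicate 2. At PlexA, for a semaphorin receptor, it was 63.0 in replicate 1 and 11.2 in replicate 2, and at Rap1, for a small GTPase, 51.6 and 10.4 in that order. The peaks that leaned furthest to replicate 2 were at SNF4Agamma, Pgm1 and smash. SNF4Agamma, for the gamma subunit of the AMP-activated kinase, had 6.94 in replicate 1 and 57.5 in replicate 2. At smash, for a protein of cell junctions, the values were 7.53 in replicate 1 and 46.8 in replicate 2. At Pgm1, for phosphoglucomutase, they were 11.0 in replicate 1 and 68.6 in replicate 2, but a second replicate 1 summit 101 bp away had 34.8, so its place here rests on taking the nearest summit, at 99 bp. At the other 5 no stronger summit lay within 200 bp in either replicate. Over all members, 26 had a stronger summit than the nearest within 200 bp in at least 1 replicate, and with the strongest summits 411 were within 2-fold.

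Peaks downstream of the start were recovered less evenly. Of the 454 upstream peaks 56.4% were matched among the strongest regions of both replicates, against 40.0% of the 90 downstream peaks (Fisher's exact test, adjusted p = 0.0080 over 3 tests). The gap was in replicate 1, whose strongest regions held 82.6% of upstream and 60.0% of downstream peaks (Fisher's exact test, adjusted p = 2.2e-05). In replicate 2 the shares were 70.7% of upstream and 75.6% of downstream peaks, and did not differ beyond counting error (Fisher's exact test, adjusted p = 0.374). The 37 peaks at 1 to 100 bp downstream had the lowest share in replicate 1 of the 5 position bins compared, at 43.2%. This split was chosen after the values had been seen. Downstream peaks had a median pooled signal of 67.5, against 77.7 upstream. It was 62.3 at 1 to 100 bp downstream and 77.4 further downstream. Matching fell with pooled signal, as given above, and the part of signal in the gap was not tested. The upstream excess held in each replicate alone, at 70.9% of the 598 single-direction peaks among the strongest 1664 regions of replicate 2 and 88.2% of 533 in replicate 1.

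Compared with the other peaks, single-direction promoter peaks were split nearly evenly between the replicates, whereas peaks at both-strand promoters leaned to replicate 1. The larger signal was in replicate 2 at 53.9% of single-direction peaks, against 30.1% of both-strand peaks (283 of 525 against 99 of 329, Fisher's exact test, adjusted p = 2.6e-11), 61.6% of peaks 0.5 to 5 kb away (adjusted p = 0.0205) and 59.7% of those over 5 kb away (adjusted p = 0.135). Among the strongest 832 peaks, a smaller number, the difference from peaks 0.5 to 5 kb away was -9.26 points, against -7.70 points over all peaks, and did not pass (Fisher's exact test, adjusted p = 0.0535). The median log2 ratio of replicate 2 to replicate 1 was 0.07 for single-direction peaks, against -0.39 for both-strand peaks, 0.17 at 0.5 to 5 kb and 0.21 beyond. This comparison was also chosen after the values had been seen.

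Which promoter class had the stronger peaks differed between the replicates. By pooled signal, 51.3% of single-direction peaks were above the median of all reproducible peaks, against 55.8% of both-strand peaks (Fisher's exact test, adjusted p = 0.318). By replicate 1 alone, the shares were 50.6% of single-direction and 67.3% of both-strand peaks (Fisher's exact test, adjusted p = 3.0e-06). By replicate 2 alone, they were 50.9% of single-direction and 42.5% of both-strand peaks, the opposite direction (Fisher's exact test, adjusted p = 0.0462). Single-direction peaks were above the median more often than peaks over 5 kb away, at 51.3% of single-direction peaks against 40.6% of the distant ones (Fisher's exact test, adjusted p = 0.0147), although replicate 2 alone gave 50.9% of single-direction peaks against 49.2% of those peaks (adjusted p = 0.704). That call was also lost with a 250 bp window (5.43 points, exact adjusted p = 0.163) and turned round with 1 start a gene (-2.18 points, exact adjusted p = 0.574). The difference from both-strand peaks passed under both of these, at -15.4 points (exact adjusted p = 6.2e-04) and -10.0 points (exact adjusted p = 0.0298) in that order. The 51.3% of single-direction peaks did not differ beyond counting error from the 49.5% of peaks 0.5 to 5 kb away (exact adjusted p = 0.582), but with a 250 bp window it was -6.87 points (exact adjusted p = 0.0334). The share matched in both replicates was 53.7% in single-direction peaks, against 50.1% in both-strand peaks, 56.9% at 0.5 to 5 kb and 50.8% beyond (Fisher's exact test, adjusted p = 0.448 in each comparison). With a 250 bp window the difference from peaks at 0.5 to 5 kb passed, at 47.2% of single-direction peaks against 58.4% (Fisher's exact test, adjusted p = 4.0e-04).

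**Figure D4:**
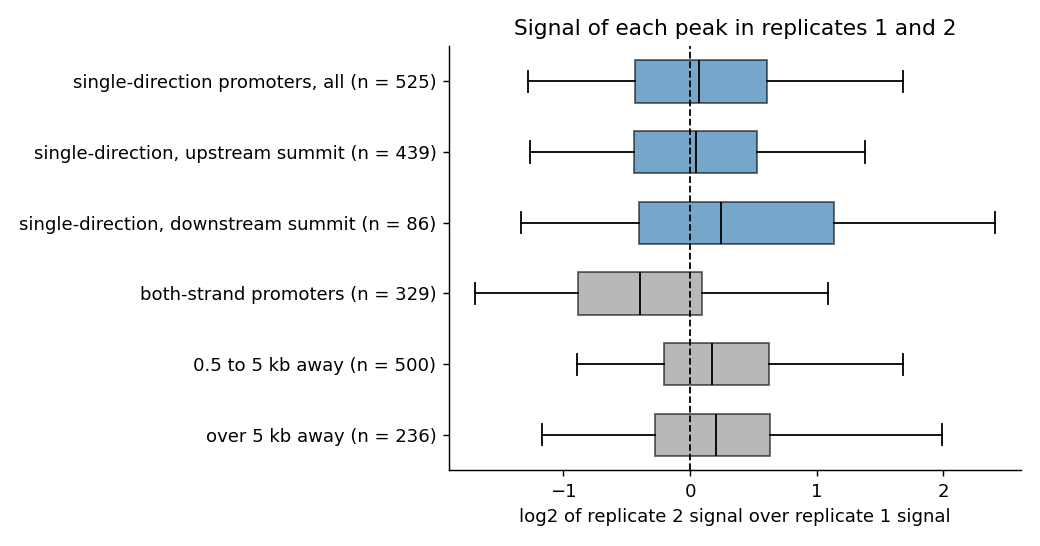
log2 of replicate 2 signal over replicate 1 signal for single-direction promoter peaks, all and by side of the start, above the 3 other classes; boxes span the quartiles with the median as a line and whiskers reach the 5th and 95th percentiles over peaks. The single-direction median is 0.07 and the both-strand median -0.39.

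The genes behind these promoters were read against the background of 10738 protein-coding genes that have a start with no opposite-strand protein-coding start within 500 bp, of which 512 (4.77%) had a member. Genes for cytosolic ribosomal proteins were the list with the highest share, with a member at 13 of 60 such genes (21.7%, Wilson interval 13.1 to 33.6%), and 16 genes of the list had a peak at a both-strand promoter. Their peaks were of ordinary strength, with a median pooled signal of 67.2. RpL23A led with 56.3 in replicate 1 and 52.8 in replicate 2. RpL22 had 23.1 in replicate 1 and 44.6 in replicate 2, and RpS4 had 36.8 and 47.5 in that order. All 13 summits were upstream, 11 of them within 100 bp of the start, and 10 peaks were higher in replicate 2. RpS14b lies beside a near-identical copy, and how reads from the pair were divided is not given in the sources used here.

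Other lists of the machinery of gene expression also had members. Translation factors had one at 5 of 39 genes (12.8%), led by eIF6. The next were eIF3c, a subunit of an initiation complex, with 68.2 in replicate 1 and 20.4 in replicate 2, and eEF1gamma, an elongation factor, with 23.8 in replicate 1 and 66.7 in replicate 2. Those peaks lay 10 and 19 bp downstream of their starts and leaned to opposite replicates. General transcription factors and Mediator subunits had members at 4 of 26 genes (15.4%, Wilson interval 6.15 to 33.5%). Of these, MED4 had 44.8 in replicate 1 and 46.7 in replicate 2. Polr2F, a subunit shared by the RNA polymerases, had 54.3 in replicate 1 and 30.4 in replicate 2, and Taf4, a subunit of TFIID, had 23.5 and 55.9 in that order. Mitochondrial ribosomal protein genes had 2 of 20, mRpL41 and mRpL4.

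Several lists had 1 member or none. Genes for oxidative phosphorylation subunits had 1 of 51 (1.96%, Wilson interval 0.347 to 10.3%), ND-B17, at 34.2 in replicate 1 and 27.8 in replicate 2. Splicing factors had 1 of 13 (7.69%), B52, at 34.7 in replicate 1 and 23.9 in replicate 2. Homeodomain patterning factors had 1 of 25 (4.0%), the anterior determinant bcd, with 36.6 in replicate 1 and 22.3 in replicate 2 and a summit 205 bp upstream. The shares of the splicing and homeodomain lists, each resting on 1 gene, were on either side of the 4.77% background. Cuticle and Osiris protein genes had none of 139, which allows a share of up to 2.16%, and chemosensory receptors had none of 164, which allows up to 1.83%. Membrane trafficking genes had none of 52 (up to 5.77%), proteasome subunits none of 26 (up to 11.5%) and nucleoporins none of 8 (up to 37.5%). The limits are 3 counts of the total and cover counting error only. For membrane trafficking genes, proteasome subunits and nucleoporins they exceed the 4.77% background, so a shortage could not be detected there. Peaks at both-strand promoters are not in these counts. Such a peak stood at 11 genes of the membrane trafficking list, 3 of the proteasome list and 2 of the nucleoporin list. It also stood at 8 oxidative phosphorylation, 2 splicing factor and 1 chemosensory receptor genes, and at 0 of the cuticle and homeodomain lists. The lists were chosen with results of these data known, and their counts are given without a test.

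No chromosome arm stood apart after adjustment. The share of genes with a member was 5.83% on X, against 4.56% on the other arms (Fisher's exact test, adjusted p = 0.163), and none of the 6 arms passed (Fisher's exact test, 1 arm, X, had an unadjusted p under 0.05, at 0.0271). On replicate 1 alone the X share was 6.40%, against 4.45% elsewhere (Fisher's exact test, adjusted p = 0.0043), and over all the alternatives run its adjusted p reached 0.950.

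Promoters with a member differed in motif content from those without a region. The stretch from 250 bp before to 50 bp after the outermost start of each gene was searched on both strands for 11 short words of known promoter and enhancer motifs. Starts with a member numbered 394 and starts with no region of the pooled list within 500 bp numbered 7543. Of the 11 words, 6 were more frequent and 2 less frequent at starts with a member (Fisher's exact test, adjusted p under 0.05). The 11 words were chosen with earlier results of these data known, so their p-values, here and at summits, are descriptive. Base composition moved in the same comparison, with a GC content of 41.3% ± 6.91 at starts with a member and 39.4% ± 8.06 at starts without (SD over 394 and 7543 starts), and its part in the result was not tested. A word match is a description and not a binding site.

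The largest excess was of GAGAGA, the repeat bound by GAGA factor. It was present at 25.4% of starts with a member, against 12.6% of starts without a region (exact adjusted p = 2.7e-10) and 14.3% of all 10738 such starts. The excess was concentrated at 150 to 50 bp upstream of the start, where the 50 bp steps held it at 9.39 and 9.90% of starts with a member, against 3.06 and 3.46% of starts without. In the step from 200 to 150 bp upstream the shares were 2.54% of starts with a member and 2.68% of starts without.

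The DNA replication-related element (DRE) word TATCGATA, bound by the factor DREF at many housekeeping genes, was present at 9.90% of starts with a member, against 4.83% without (exact adjusted p = 1.8e-04; 6.18% of all starts). The Motif 1 core GGTCACAC was present at 6.85% of starts with a member, against 3.65% without (exact adjusted p = 0.0059; 5.07% of all). That call was lost against starts with no reproducible peak, at 6.85% with a member against 4.94% of those (exact adjusted p = 0.135). The E-box words were also more frequent, CAGCTG at 19.0% of starts with a member against 13.9% without (exact adjusted p = 0.0110; 15.1% of all) and CACGTG at 6.09% with a member against 3.63% without (adjusted p = 0.0270; 3.83% of all). The call for CACGTG was lost on replicate 2 alone (5.22% with a member against 3.63% without, exact adjusted p = 0.114). The CA repeat word CACACA, which overlaps a Motif 1 core that is followed by A, stood at 25.1% of starts with a member against 19.8% without (exact adjusted p = 0.0186; 20.4% of all). Starts with no reproducible peak, which include starts with a weaker region, carried DRE at 6.04%, the Motif 1 core at 4.94% and CAGCTG at 14.9%. Each of these shares was above that at starts without a region. Starts with only a weaker region were not compared as a group, so these words cannot be called particular to members.

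The words that were less frequent were those of the TATA box and of Zelda sites. The TATA box word TATAAA was present at 36.0% of starts with a member, against 45.9% of starts without (exact adjusted p = 3.3e-04; 44.3% of all). The largest difference was in the step from 50 bp upstream to the start, the side on which a TATA box works, with 5.08% of starts with a member against 16.8% without. It was 1.02% with a member against 4.23% without in the first 50 bp downstream. Between 200 and 150 bp upstream the order was opposite, at 12.9% with a member against 10.2% without. CAGGTA, the core of the sites of the early embryonic activator Zelda, was present at 1.78% of starts with a member, against 6.56% without (exact adjusted p = 1.4e-04; 6.36% of all). The Initiator word TCAGT did not differ beyond counting error, at 54.1% with a member against 55.0% without (exact adjusted p = 0.755; 53.7% of all). The Pho word GCCATT did not pass either, at 14.7% with a member against 17.9% without (exact adjusted p = 0.132; 17.2% of all). On each replicate alone it passed as less frequent with a member. The shares were 13.7% against 17.9% on replicate 1 (exact adjusted p = 0.0387) and 13.4% against 17.9% on replicate 2 (exact adjusted p = 0.0352). The CTCF core AGGNGGC, at 10.7% with a member against 7.81% without, missed the threshold (Fisher's exact test, adjusted p = 0.0548; 8.47% of all). It passed on replicate 1 alone (exact adjusted p = 0.0428) and not on replicate 2 alone (exact adjusted p = 0.108).

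Within 50 bp of the summits the same words were not concentrated. Presence within 50 bp of the summit was compared, peak by peak, with an equal window centred 300 bp further upstream, and none of the 11 words passed an exact McNemar test after adjustment (smallest adjusted p = 0.202). At an unadjusted p under 0.05 there were 2. DRE was at 10 summits and 2 flanks (unadjusted exact p = 0.0386), and GAGAGA was at 28 summits and 45 flanks (unadjusted exact p = 0.0498). With 100 bp in place of 50, 2 words passed, both more frequent at summits. DRE was then at 24 summits and 6 flanks (exact McNemar test, adjusted p = 0.0100). The Motif 1 core was at 13 summits and 1 flank (exact McNemar test, adjusted p = 0.0101).

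The summits did differ from those at both-strand promoters. Of 33 tests over 11 words and 3 classes, 3 passed, all against both-strand promoters. GAGAGA was within 50 bp of the summit at 5.15% of single-direction peaks, against 0.885% of both-strand peaks (Fisher's exact test, adjusted p = 0.0084). CAGCTG was at 2.94% of single-direction against 8.85% of both-strand summits (exact adjusted p = 0.0082). DRE was at 1.84% of single-direction against 5.90% of both-strand summits (exact adjusted p = 0.0200). For GAGAGA and CAGCTG the more distant classes were close to the single-direction peaks. GAGAGA was at 6.26% of summits 0.5 to 5 kb away and 7.09% of those beyond, and CAGCTG at 3.04 and 2.76% in that order. DRE was at 0.190 and 0% in that order. All 3 differences from both-strand peaks also passed with 100 bp in place of 50. They were 9.91 points for GAGAGA (exact adjusted p = 1.6e-05), -12.5 for CAGCTG (1.2e-05) and -5.03 for DRE (0.0275). None of the 3 passed on the list of either replicate alone, among the strongest 832 peaks or with 25 bp. The direction was the same in each of those, from 1.64 to 5.07 points for GAGAGA, -5.60 to -2.25 for CAGCTG and -3.36 to -2.62 for DRE. With 100 bp, 6 tests passed, and the others were against the more distant classes. DRE was at 4.41% of single-direction peaks, against 0.190% at 0.5 to 5 kb (exact adjusted p = 1.6e-05) and 0% beyond (exact adjusted p = 0.0014). The Motif 1 core was at 2.39%, against 0.380% at 0.5 to 5 kb (exact adjusted p = 0.0391).

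All 2080 possible words of 6 bases, each counted together with its reverse complement, were then tested in the same way, and 3 (0.144%) were more frequent at summits. ACAGTG was within 50 bp of 75 summits (13.8%) and in the upstream flank of 24 (4.41%, exact McNemar test, adjusted p = 1.5e-04). ACTGTG was at 56 summits, against 20 flanks (10.3% of summits against 3.68% of flanks, exact adjusted p = 0.0200), and CTAGCA at 27, against 5 (4.96% of summits against 0.919% of flanks, adjusted p = 0.0412). ACAGTG and the complement of ACTGTG overlap in CACAGTG, so those counts are not independent, and 118 peaks (21.7%) held at least 1 of the 3 words. The next word, ACACTG, at 58 summits against 25 flanks, missed the threshold (exact adjusted p = 0.0584). The count of words that passed was 0 with 25 bp windows, 7 with 100 bp, 0 among the stronger 272 of the peaks, 0 on replicate 2 alone and 2 on replicate 1 alone. Of the 3 words above, only ACAGTG passed on replicate 1 alone (exact McNemar test, adjusted p = 5.8e-04). ACTGTG and CTAGCA did not pass there (exact adjusted p = 0.177 and 0.193 in that order). The GC content was 39.1% ± 8.76 at summits and 39.5% ± 11.1 in the upstream flank (SD over 544 peaks).

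ACAGTG lay on both sides of the summit and was most frequent just downstream of it. Its occurrences were counted in steps of 50 bp along the gene's strand. They numbered 29 and 31 in the 100 bp before the summit and 56 and 43 in the 100 bp after it. From 250 to 100 bp before it they numbered 27, 32 and 26, and from 100 to 250 bp after it 20, 14 and 19. Around the 83 occurrences within 50 bp, read in the direction of ACAGTG, the base just before the word was C at 48.2%, the base before that was G at 48.2%, and the base just after was G at 43.4%. In the second set of sequences above, a longer form is seen at prage, at CG7694 and fray, at PAN3 and at CG8034, which all print the 7-base form CACTGTG. The word was present from 250 bp before to 50 bp after the start at 23.6% of starts with a member, against 10.9% of starts with no region (12.8% of all starts), a description since the word was chosen on the same peaks.

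The word was not concentrated in the strongest peaks, and other classes carried it too. It was at 9.56, 12.5, 14.7 and 18.4% of peaks in the 4 groups by signal, strongest first, and peaks with it had a median pooled signal of 66.9, against 77.4 without. By class it was at 13.8% of single-direction peaks, against 9.73% at both-strand promoters, 13.1% at 0.5 to 5 kb and 11.8% beyond.

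**Figure D5:**
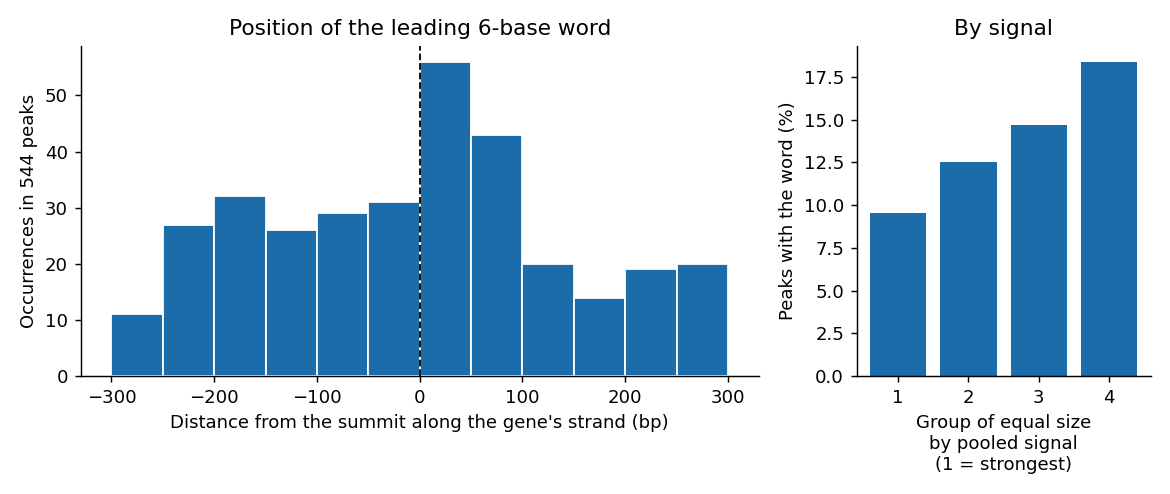
Left, occurrences of ACAGTG and its complement by distance from the summit along the gene's strand in 544 single-direction promoter peaks, in 50 bp steps with the summit as a dashed line; right, the percent of peaks with the word within 50 bp of the summit in 4 groups of equal size by pooled signal. The counts are highest in the 100 bp after the summit, at 56 and 43, and the share is 9.56% in the strongest group and 18.4% in the weakest.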

How the data were processed

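The files are region lists on the dm6 genome build. Per the deposited description file, the authors called relaxed regions in each replicate and in pooled data against a control and kept those that passed an irreproducible discovery rate step. Aligner, caller and thresholds are not given in the sources used here. Each region carries the authors' signal, a score of unstated scale, and a deposited −log10 q value, which stood at a ceiling of 3.38 for 393 of the 544 peaks and was not used further. Read depth is unknown, and the dm3 lists and the control data were not used. Summits were placed against protein-coding transcripts of Ensembl release 115 (BDGP 6.54) with Python 3.11.15, numpy 2.4.6, pandas 2.3.3 and scipy 1.17.1, and coordinates count from 1. Of the peaks, 480 have a fixed width of 510 bp and 64 are narrower. A replicate's signal for a peak is that of its nearest summit within 200 bp. Counts were compared with exact tests (binomial, Fisher, McNemar), two-sided, with Benjamini-Hochberg adjustment within each comparison. Intervals and limits cover counting error only. The labels call the replicates biological, and nothing more is given on their embryos.

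The members, gene lists and words were chosen with earlier results of these data known. Named genes are the 20 with the largest pooled signal, the 3 leaning most to each replicate, the 3 on each side of the 500 bp limit, genes with 3 or more peaks, and up to 3 per gene list. The alternatives changed the window, the starts counted, the strength, the replicate, the matching of summits, the flank and the word window. The placing of summits and the word tests were first tested on simulated data.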

Additional observations from a re-analysis of the deposited data

How the results depend on the processing

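The upstream share stayed between 70.9 and 88.2% and passed under every alternative run, from 26.4 to 31.1 points above the weaker regions except for 25.4 with a 1000 bp window and 23.1 on replicate 2 alone. Members were 29.9% of peaks with a 250 bp window, 37.6% with 1000 bp, 23.5% with 1 start a gene, and 32.0 to 35.9% without a replicate.

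Within 100 bp, the difference from weaker regions in points was 1.71 with 1000 bp, 3.88 with 1 start a gene, -10.3 in the strongest 832 and 0.15 to 3.17 without a replicate. Above the median signal, differences from both-strand, 0.5 to 5 kb and over 5 kb peaks were -15.4, -6.87 and 5.43 with 250 bp, -10.0, -4.71 and -2.18 with 1 start a gene, and -16.7 to 8.44, -3.35 to 5.96 and 1.71 to 13.5 without a replicate. Matched in both replicates, differences from both-strand and 0.5 to 5 kb peaks were -0.543 and 1.63 on whole lists. With 250 bp they were -8.53, which did not pass (Fisher's exact test, adjusted p = 0.0600), and -11.2, which passed. Differences from peaks over 5 kb away were -0.237 in the strongest 832 and -3.60 with 250 bp. Higher in replicate 2, the difference from 0.5 to 5 kb peaks was -9.26 in the strongest 832.

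Fixed words passing at summits, in either direction, numbered 4 with the downstream flank, 2 with 100 bp, and 1 on each replicate alone. With the downstream flank TATAAA was higher at summits (79 against 40). GAGAGA (28 against 57), CACACA (38 against 91) and AGGNGGC (15 against 33) were lower there. With 100 bp, DRE and the Motif 1 core were higher. On replicate 1 alone the word was GAGAGA, lower at summits (19 against 47), and on replicate 2 alone TCAGT, higher (129 against 89). Between classes 0 passed with 25 bp, 6 with 100 bp, 0 in the strongest 832 and 0 without a replicate. All 6-base words passing numbered 147 with the downstream flank, whose GC content was 47.3%, 0 with 25 bp, 7 with 100 bp, 0 in the stronger 272 and 0 to 2 without a replicate. With the downstream flank ACAGTG and ACTGTG passed. CTAGCA, at 27 summits and 12 flanks, did not (exact McNemar test, adjusted p = 0.115). Arms passing numbered 1 without replicate 2. The arm difference turned round for 2R (-0.137), 3R (0.328), 4 (0.0932) and X (-0.0709) with 250 bp, 2L with 1000 bp (-0.295), 2L (-0.0167) and 4 (0.264) in the strongest 832, and 4 without a replicate (-2.22 to 0.716). Causes were not tested beyond what each alternative changes. No paired analysis was possible because there is 1 group. Depth is unknown, so its limits cannot be set.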

Other observations

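More of the single-direction peaks stood at minus-strand than at plus-strand starts, at 307 and 237 (56.4% minus). The strongest regions of replicate 1 gave 297 and 236 in the same order and those of replicate 2 gave 326 and 272, while the whole pooled list gave 2345 and 2243 and all genes with such a start 5387 and 5351. This count was looked at after the values were seen and was not tested.

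The 64 peaks narrower than 510 bp had a median signal of 183.5, and 96.9% of them were matched among the strongest regions of both replicates.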
